A study of Mus musculus with 103 samples.

Results

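Deletion of the cohesin release factor Wapl in resting mouse fibroblasts was measured by RNA-seq of poly(A) RNA in 4 libraries, out of 27 RNA-seq libraries in the deposited expression table and 103 samples in the series. The cells were C57BL/6 mouse embryonic fibroblasts taken from E13.5d embryos, of genotype Rosa26(CreER/+) Wapl(fl/-), as clones 1 and 2. CreER is a Cre recombinase that acts on floxed DNA only after a tamoxifen metabolite reaches it, and it was expressed from the broadly active Rosa26 locus. For each clone, 1 library came from cells rested for 10 days and 1 from cells given 4'-hydroxytamoxifen for 2 to 3 days and rested for 10 days. Both groups carried CreER, and both already lacked 1 Wapl allele. The comparison is thus between cells with 1 floxed copy and cells treated to delete it. The drug control was Rosa26(CreER/+) cells without a floxed gene, clones 2 and 3, untreated (2 libraries) or given the same drug (2 libraries). Rosa26(CreER/+) Smc3 cells, floxed on both alleles in clone 1 and fl/- in clones 2 to 4, gave 4 untreated and 4 drug-treated libraries, in which a subunit of the cohesin ring was deleted. Ctcf(fl/fl) cells (2 and 2 libraries), Ctcf(fl/fl) Wapl(fl/fl) cells (2 untreated, 1 treated) and wild-type cells (2 and 2) were treated with Cre from an adenovirus. Levels are given in RPKM, reads scaled to the length of the transcript and to the mapped reads of the library, and the 4 Wapl libraries held 16600000 to 21600000 reads.

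Cohesin is a ring-shaped complex that holds DNA molecules together and forms chromatin loops, which often end at sites bound by the insulator protein CTCF. Wapl opens the ring and takes cohesin off DNA, so that cells without it keep cohesin on chromatin for longer and build longer loops. In cells that do not divide, the complex has no sister chromatids to hold, which leaves its action on chromosome folding and transcription in view.

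Wapl RNA, listed under the older symbol Wapal, was at 1.80 and 1.48 RPKM in untreated clones 1 and 2, and at 0.780 and 0.914 RPKM after the drug. These values rest on 154, 112, 77 and 70 reads. Both treated libraries lay below both untreated ones, and the mean after the drug was 0.516 times the untreated mean. On the log2(RPKM + 1) scale used for all fold changes, which understates changes of low genes, the difference was -0.51 (SE 0.18). It missed the threshold of 0.05 in limma, a linear model fitted over all 27 libraries (adjusted p = 0.167 over 12604 genes), and passed it with the clone as a block (adjusted p = 0.0233). Untreated floxed cells already held less Wapl RNA than the CreER controls, which had 5.53 and 4.86 RPKM untreated and 4.53 and 4.96 RPKM treated. The level also varied without a Wapl mutation in the labels, as untreated Smc3 cells held 2.17 to 3.16 RPKM. In the doubly floxed cells, 2.72 and 3.92 RPKM stood against 1.52 RPKM after Cre. The labels do not name the exons that the deletion removes, and the extent of the deletion was not measured in these libraries. Reads left in the treated cells may come from a shortened transcript or from undeleted copies, which was not tested.

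**Figure D1:**
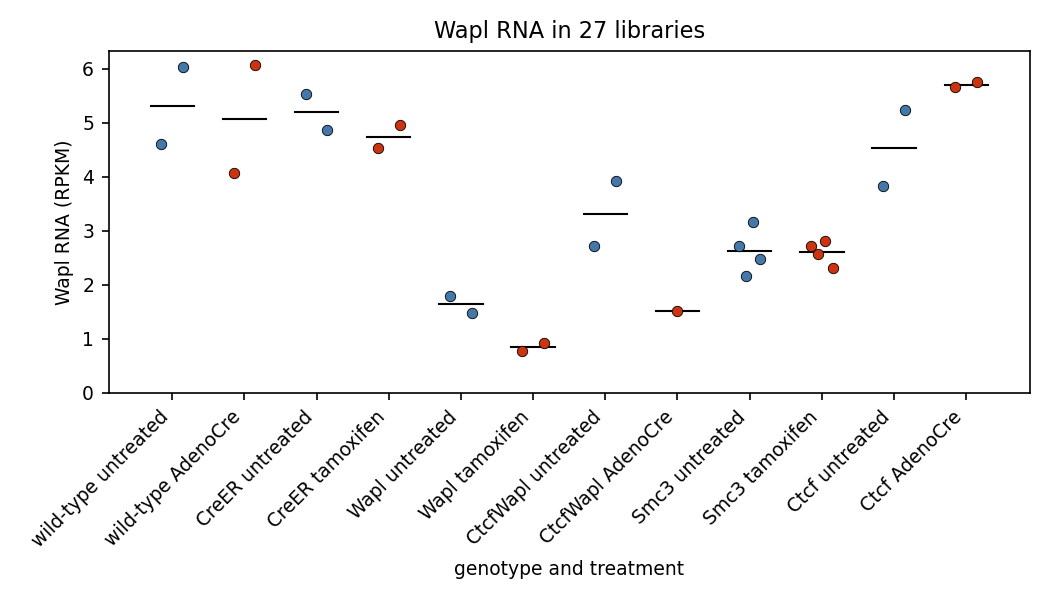
Wapl RNA (RPKM, vertical axis) in each of the 27 libraries by genotype and treatment; 1 point per library, blue untreated, red treated with drug or Cre, bar at the group mean. The 2 treated Wapl libraries, at 0.780 and 0.914 RPKM, are the lowest of all 27.

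After Wapl deletion 189 genes rose (1.5% of the 12604 tested) and 117 fell (0.928%), at an adjusted p under 0.05. The genes with the largest increases were led by Nxph4, a secreted partner of neurexins, the metabotropic glutamate receptor Grm4 and the acetylcholine-splitting enzyme Ache. The genes that fell most included the adipogenic receptor Pparg, the neurturin receptor Gfra2, the collagen-binding proteoglycan Fmod and the transcription factors Sox4 and Maf. Among the 306 genes that passed, 83 rose and 40 fell by more than 1 on the log2 scale, and 47 of the raised genes were under 1 RPKM in both untreated libraries. Genes were tested if they reached 1 RPKM in at least 2 libraries, which such genes can do through the treated Wapl libraries alone. In 2927 genes (23.2%) both treated libraries lay above both untreated ones and in 3227 (25.6%) below, so the absence of overlap by itself is a weak criterion with 2 libraries a group. With the clone as a block, 960 genes (7.62%) rose and 879 (6.97%) fell, and these counts include all 306. The count at this threshold depended on single libraries. It fell most without the treated library of clone 1 and least without the treated library of clone 2. Leaving out the untreated library of either clone also lowered it.

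The drug alone changed little in the CreER control cells. In limma 0 of 12604 genes passed there (0%), 41 had an unadjusted p under 0.05, and with the clone as a block 0 passed and 187 were under 0.05. The change after Wapl deletion exceeded that in the control (a difference of differences in the same model) for 14 genes in the upward direction (0.111%) and 4 in the downward direction (0.0317%). All 18 also passed in the Wapl comparison. With the clone as a block these counts were 180 (1.43%) and 132 (1.05%). The count of 18 fell to 7 without the treated library of clone 1, to 10 without the untreated library of clone 2, and to between 6 and 11 without any 1 of the control libraries. The control clones differed from the Wapl clones in sex: Xist was at 3.2 to 6.0 RPKM in the Wapl libraries and at most 0.01 RPKM in the controls, where Ddx3y was at 2.9 to 3.8 RPKM.

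Nxph4 stood at 0.798 and 1.63 RPKM in untreated clones 1 and 2 and at 30.0 and 26.8 RPKM after the drug. The groups lay far apart, with 25 and 45 reads against 1085 and 753. The change was 3.76 (SE 0.27, adjusted p = 9.87e-08), the largest among the genes named here, and exceeded that in the control by 3.99 (adjusted p = 1.9e-05). In the control libraries Nxph4 lay between 1.54 and 2.67 RPKM. It encodes neurexophilin 4, a secreted glycoprotein that binds neurexins at synapses.

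Grm4, which encodes a glutamate receptor that dampens transmitter release, was listed at 0 in untreated clone 1 and at 0.163 RPKM, from 8 reads, in untreated clone 2. After the drug it reached 7.03 and 6.45 RPKM, from 451 and 321 reads. It rose by 2.84 (SE 0.11, adjusted p = 1.55e-11) and by 2.88 more than in the control (adjusted p = 5.8e-09). None of the 4 control libraries held more than 0.0617 RPKM. Grm4 reached 1 RPKM only in libraries in which Wapl had been deleted, so it entered the test through them.

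Ache, acetylcholinesterase, rose from 0.172 and 0.333 RPKM to 7.24 and 5.61 RPKM, a change of 2.56 (SE 0.16, adjusted p = 3.12e-08). The control libraries lay between 0.0635 and 0.281 RPKM, and the difference from the control was 2.40 (adjusted p = 1.9e-05). Rasgrp2, an exchange factor that activates the small GTPase Rap, rose from 0.516 and 0.333 RPKM to 6.44 and 4.25 RPKM, a change of 2.14 (SE 0.30, adjusted p = 0.000649). Its difference from the control was 2.22 (adjusted p = 0.0389).

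The start regions of Ache and Rasgrp2 are shown because both genes went from under 1 RPKM to several RPKM together with an adjacent gene. They are RefSeq sequences of build GRCm38.p6, 5′ to 3′ on the gene's strand, from 250 bases before the start to 50 after it; RefSeq gives 1 start for Ache and 2 for Rasgrp2. Capitals mark matches on either strand to the letters GGGCGG (the GC box bound by Sp factors) or AGGGGGC (a short word from the core of the CTCF motif); overlapping matches run together.
Ache, chr5:137288004-137288303, plus strand: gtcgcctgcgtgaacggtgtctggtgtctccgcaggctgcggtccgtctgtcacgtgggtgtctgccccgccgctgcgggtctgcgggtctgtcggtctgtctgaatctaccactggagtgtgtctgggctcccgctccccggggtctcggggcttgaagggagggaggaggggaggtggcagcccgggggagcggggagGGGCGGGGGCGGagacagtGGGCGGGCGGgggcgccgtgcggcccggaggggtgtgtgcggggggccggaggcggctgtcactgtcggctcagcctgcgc
Rasgrp2 start 1, chr19:6399625-6399924, plus strand: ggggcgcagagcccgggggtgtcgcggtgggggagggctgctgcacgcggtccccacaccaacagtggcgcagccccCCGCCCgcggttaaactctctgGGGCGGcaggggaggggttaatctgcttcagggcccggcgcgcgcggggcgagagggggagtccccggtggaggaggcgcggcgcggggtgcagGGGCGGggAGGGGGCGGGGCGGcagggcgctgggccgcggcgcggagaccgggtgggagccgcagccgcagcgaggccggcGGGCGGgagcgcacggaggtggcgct
Rasgrp2 start 2, chr19:6401455-6401754, plus strand: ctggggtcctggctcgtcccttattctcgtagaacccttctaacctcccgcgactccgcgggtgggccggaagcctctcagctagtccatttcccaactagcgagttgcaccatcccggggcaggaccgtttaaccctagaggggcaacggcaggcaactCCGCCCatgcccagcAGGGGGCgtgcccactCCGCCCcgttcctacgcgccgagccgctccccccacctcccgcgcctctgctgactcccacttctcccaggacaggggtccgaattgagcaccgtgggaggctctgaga
The Ache region held 4 GC boxes, the first Rasgrp2 region 6 and the second 2, and none of the 3 held TATAAA. Each Rasgrp2 region held the CTCF word 1 time, overlapping a GC box in the first, and the Ache region did not hold it. Over all 32851 promoters in the table, 10.6% held the CTCF word, 35.7% a GC box and 13.6% TATAAA. Of the promoters of genes that rose, 34 of 194 (17.5%) held the CTCF word and 120 (61.9%) a GC box, and of those of genes that fell, 23 of 116 (19.8%) and 68 (58.6%), beside 17.1% and 62.9% over the promoters of all genes tested. The full CTCF core consensus, which has degenerate positions, was in 1 promoter of the raised genes (0.515%) and 3 of the lowered (2.59%). The 1 was that of the second Rasgrp2 start. Over the promoters of all genes tested the share was 0.724%. With any base at the degenerate positions, it was in 2 promoters of the raised (1.03%) and 9 of the lowered genes (7.76%). The share was 2.85% over tested and 2.43% over all promoters. These differences were not tested. Several promoters can belong to 1 gene, and a word match is a description of the letters only.

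Of the other 8 genes among the 12 with the largest increases at a group mean of at least 5 RPKM, Hist1h4h and Aass also passed against the control. Hist1h4h, a histone H4 gene, was at 3.70 and 3.67 RPKM untreated and at 17.8 and 21.9 RPKM treated, a change of 2.15 (SE 0.31, adjusted p = 0.000903). It lay at 4.74 and 2.11 RPKM in untreated and 1.46 and 1.57 RPKM in treated controls, and the difference of differences was 2.90 (adjusted p = 0.00635). Histone H4 genes are close copies of each other, so the split of reads between them is uncertain. Aass, which encodes the enzyme that starts lysine breakdown, went from 1.22 and 1.28 to 11.3 and 6.50 RPKM (2.09, SE 0.24, adjusted p = 0.000101). Its excess over the control was 2.16 (adjusted p = 0.00792).

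The other 6 encode signalling, adhesion and transport proteins, and none of them passed against the control, with adjusted p from 0.0808 to 0.340; with the clone as a block all but Col23a1 (0.0634) did, with adjusted p from 0.0154 to 0.0452. Ccl11, the eosinophil attractant eotaxin, was at 3.25 and 1.86 RPKM untreated and 25.6 and 11.3 RPKM treated, 2.38 higher (SE 0.56, adjusted p = 0.0301). Cntfr, the receptor for ciliary neurotrophic factor, was at 5.66 and 7.23 RPKM and then at 29.9 and 24.9 RPKM, 1.93 higher (SE 0.32, adjusted p = 0.00261). Ntf3, the growth factor neurotrophin 3, went from 0.899 and 1.02 to 6.94 and 5.17 RPKM, 1.84 higher (SE 0.42, adjusted p = 0.0224). The cell adhesion gene Cdh26 rose by 2.08, the transmembrane collagen Col23a1 by 1.80 and the glucose transporter Slc2a6 by 1.80. In every one of these genes both treated libraries lay above both untreated ones, but the groups lay apart in all 306 genes that passed. The calls of Ccl11, Cdh26, Cntfr, Ntf3, Col23a1 and Slc2a6 were each lost without the treated library of clone 1, and that of Ccl11 also at smaller pseudocounts, with adjusted p of 0.525 without that library.

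**Figure D2:**
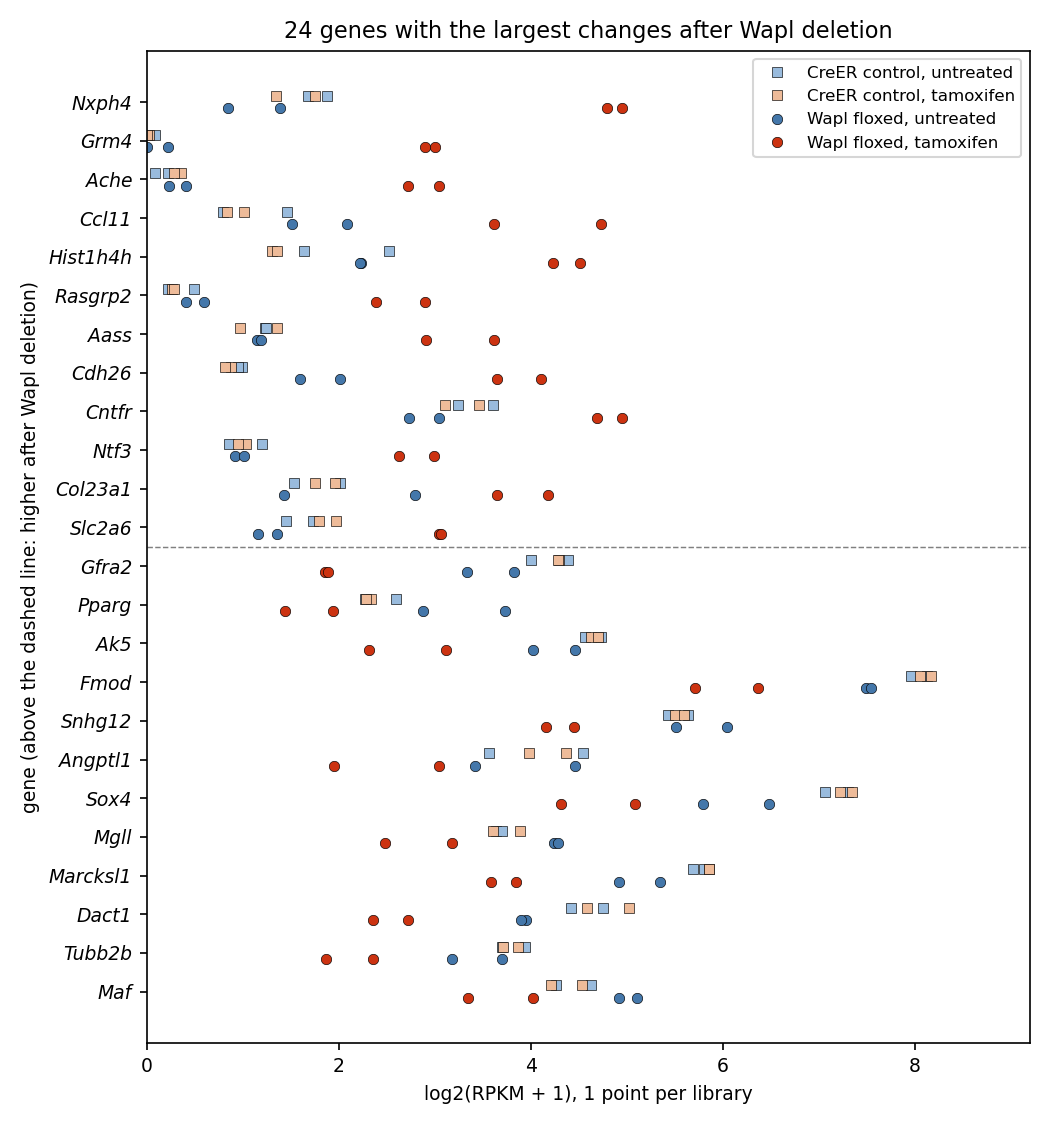
Level of the 12 genes with the largest increases and the 12 with the largest decreases after Wapl deletion (horizontal axis, log2(RPKM + 1), 1 point per library; circles Wapl floxed, squares CreER control, blue untreated, red and orange tamoxifen). In all 24 genes the red circles lie apart from the blue ones, as the groups do in all 306 genes that passed.

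The 12 genes with the largest decreases at that level were expressed in untreated cells at group means between 9.32 and 183 RPKM. Fmod, fibromodulin, was at 180 and 186 RPKM untreated and at 51.2 and 81.5 RPKM treated, a fall of 1.49 on the log2 scale (SE 0.32, adjusted p = 0.0184). Gfra2, a co-receptor for neurturin, was at 9.13 and 13.2 RPKM and then at 2.62 and 2.71 RPKM, a change of -1.71 (SE 0.42, adjusted p = 0.0379). Marcksl1, an actin-binding substrate of protein kinase C, fell from 29.2 and 39.8 to 11.1 and 13.4 RPKM (-1.42, SE 0.20, adjusted p = 0.000717). Marcksl1 was also the 1 member of these 12 to pass against the control, with a difference of -1.52 (adjusted p = 0.037). Sox4, Ak5, Dact1, Angptl1 and Gfra2 passed against the control with the clone as a block, with adjusted p from 0.0117 to 0.0491.

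Sox4, a transcription factor of progenitor cells, was at 54.5 and 88.6 RPKM untreated and at 18.9 and 33.0 RPKM treated (-1.44, SE 0.35, adjusted p = 0.0367). Ak5, an adenylate kinase known from brain, went from 15.2 and 21.0 to 3.97 and 7.68 RPKM, a change of -1.52 (SE 0.24, adjusted p = 0.00153). Mgll, which cleaves monoacylglycerols, changed by -1.43, Dact1, a modulator of Wnt signalling, by -1.39, and the tubulin gene Tubb2b by -1.33. Snhg12, a host gene of small nucleolar RNAs, changed by -1.48 and the secreted protein gene Angptl1 by -1.44. All of these lay lower in both treated libraries than in either untreated one, and none but Marcksl1 kept its call without the treated library of clone 1.

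Pparg was at 12.3 and 6.33 RPKM untreated and at 1.71 and 2.84 RPKM treated, and the transcription factor Maf at 33.4 and 29.3 and then 9.17 and 15.3 RPKM. Pparg changed by -2.30 in clone 1 and -0.93 in clone 2, and Maf by -1.76 and -0.90. Both genes are also known from macrophages, whose markers were present in these cultures. All 20 tested macrophage markers of 21 in the table lay lower on average after the drug (median -1.20, against -0.01 over all genes), and none passed the test. Their summed level went from 5556 to 1140 RPKM in clone 1 and from 4331 to 3418 RPKM in clone 2. In the controls it ranged from 372 to 1349 RPKM, and the median change was -0.51. That median averages 2 control clones in which Cd68 and Lyz2 moved in opposite directions. Cd68 went from 193.6 to 55.5 RPKM in control clone 2 and from 106.5 to 179.4 RPKM in control clone 3. Lyz2 went from 207.5 to 65.8 RPKM and from 105.7 to 163.6 RPKM. The defining markers were not at 0 in the Wapl cultures. There Cd68 was at 1047 and 826 RPKM untreated and at 231 and 721 RPKM treated. Emr1 was at 48.0, 29.0, 4.78 and 13.9 RPKM in the same order. Fewer cells of a type and less RNA per cell cannot be told apart in bulk RNA. The part of the macrophage markers in the other decreases was not tested.

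**Figure D3:**
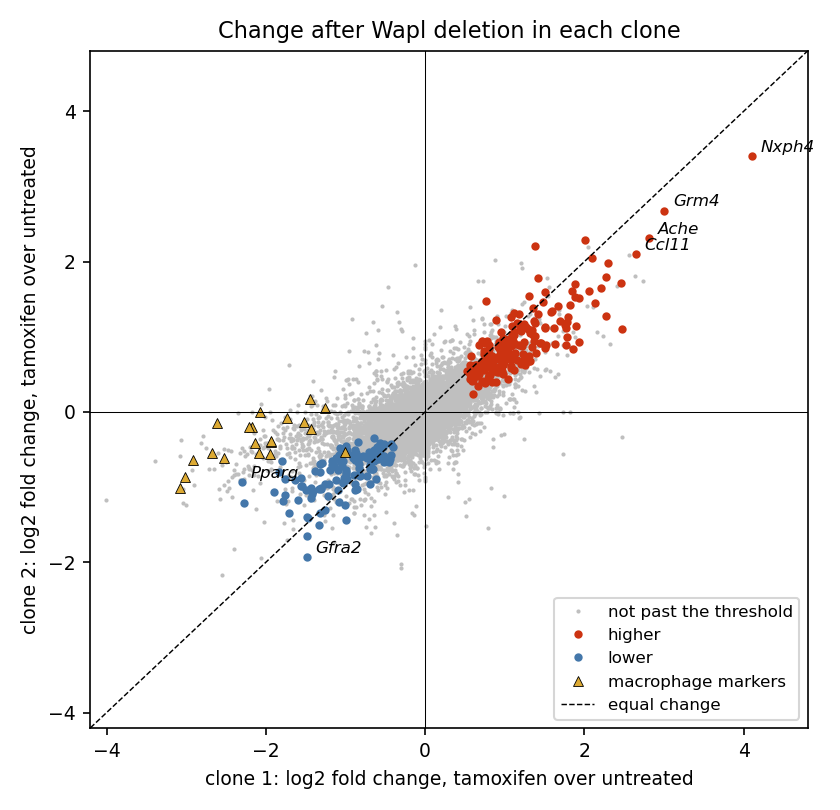
Log2 fold change after the drug in clone 1 (horizontal axis) against clone 2 (vertical axis) for the 12604 genes tested; red and blue points passed the test as higher or lower, grey points did not, triangles are the 20 macrophage markers, the dashed line marks equal change. The triangles sit at a median of -2.08 in clone 1 and -0.40 in clone 2. The 306 genes that passed moved the same way in both clones, a property the test itself favours.

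The 306 genes that passed moved in the same direction in both clones, a property the test itself favours. Of these, 251 (82.0%) moved further in clone 1, compared with 63.0% of all genes tested. The median size of their change was 1.04 in clone 1 and 0.827 in clone 2 on the log2 scale. For the 12 genes with the largest decreases, clone 2 changed by between -1.93 (Gfra2) and -0.90 (Maf). These 12 were chosen by their mean change over both clones, which favours a large change in clone 2. The macrophage markers changed in clone 2 by between -1.01 (Emr1) and 0.18, with a median of -0.40. The 2 ranges overlap, and their difference was not tested. For the 12 with the largest increases, chosen in the same way, clone 2 changed by between 1.61 (Ntf3) and 3.41 (Nxph4).

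Besides Marcksl1, 2 genes above 5 RPKM fell further than in the control. Efnb2, the membrane-bound ligand ephrin-B2, was at 23.6 and 22.4 RPKM untreated and 9.52 and 9.79 RPKM treated, a change of -1.17 (SE 0.16, adjusted p = 0.000649) with a difference from the control of -1.23 (adjusted p = 0.0357). Pet112, a subunit of the enzyme that makes glutaminyl-tRNA in mitochondria, went from 5.33 and 5.03 to 1.51 and 1.98 RPKM, a change of -1.18 with a difference of -1.19 (adjusted p = 0.045). The control libraries held Efnb2 at 24.2 to 26.2 RPKM in all 4 cultures.

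The leading genes were then set beside the deletion of the cohesin ring subunit Smc3, where the difference between the deletions was tested in the same model: 70 genes (0.555%) changed more in the upward and 78 (0.619%) more in the downward direction after Wapl deletion. Nxph4, Grm4, Ache and Rasgrp2 changed by -0.64, -0.07, -0.12 and 0.09 in Smc3-deleted cells, and the differences of 4.40, 2.91, 2.68 and 2.05 all passed (adjusted p = 3.51e-07, 3.78e-10, 3.51e-07 and 0.00533). Nxph4 went from 1.62 to 3.77 RPKM over the untreated Smc3 libraries to between 1.02 and 1.99 RPKM in the treated ones. Sox4, Marcksl1 and Maf changed by 0.71, 0.27 and 0.08 in Smc3-deleted cells, and the differences of -2.15, -1.68 and -1.41 passed as well (adjusted p = 0.0151, 0.00141 and 0.0476), that of Maf not with the clone as a block (adjusted p = 0.0644). Ak5 fell further in Smc3-deleted cells, by 3.16 on the log2 scale, and its difference of 1.63 had an adjusted p of 0.00509.

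For other leading genes the difference between the deletions did not pass. Hist1h4h changed by 1.95 and Aass by 2.16 after Smc3 deletion, with differences of 0.20 (SE 0.38) and -0.07 (SE 0.30) and adjusted p of 0.949 and 0.981. Ntf3 changed by 1.64, Snhg12 by -1.47, Mgll by -1.62 and Pparg by -1.52 there. Their differences lay between -0.10 and 0.20, with adjusted p of at least 0.951. Fmod, Gfra2, Dact1 and Angptl1 changed by -2.222, -2.598, -1.999 and -1.638 after Smc3 deletion, and Cdh26 by 1.539 (adjusted p at most 0.000671). Their differences between the deletions lay from 0.196 to 0.891, with adjusted p from 0.577 to 0.961. Ccl11, Cntfr, Col23a1, Slc2a6 and Tubb2b changed there by between -0.208 and 0.4665. The adjusted p of their differences ran from 0.0637 to 0.303. With the clone as a block these differences passed for all but Tubb2b. A p that misses the threshold does not show equal effects.

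Cells in which Ctcf or both Ctcf and Wapl were deleted give further values for the leading genes, though with Cre from an adenovirus and with 1 treated library for the double deletion. Nxph4 was at 4.30 and 6.52 RPKM in untreated doubly floxed cells and at 86.2 RPKM after Cre, and Grm4 at 0.0732 and 0.0766 and then 1.35 RPKM. Ache was at 0.125 and 0.235 and then at 2.69 RPKM. No test is given for this single treated library. Among the 24 leading genes, Ccl11, Aass, Cdh26 and Marcksl1 moved there against their direction after Wapl deletion, by -0.59, -0.40, -0.39 and 0.11. The others kept their direction, from 3.79 for Nxph4 and -4.01 for Fmod to -0.01 for Maf. Outside the 24, for example, Pet112 (0.78), Cdh3 (-1.44) and Ntn4 (-1.24) moved against it, and Efnb2 (-0.48) and Slc7a5 (-1.72) with it. After Ctcf deletion alone Ache was at 1.86 and 2.30 RPKM against 0 and 0.347 RPKM (adjusted p = 1.87e-05), and Nxph4 at 10.9 and 12.2 against 3.99 and 5.71 RPKM (1.11, adjusted p = 0.015). Wild-type cells given the same virus held Nxph4 at 8.90 and 13.1 RPKM against 6.55 and 7.21 RPKM, and Ache at most at 0.322 RPKM. They held Fmod at 43.6 to 63.8 RPKM against 157 to 229 RPKM untreated. Their Ccl11 lay at 6.9 to 9.3 RPKM against 0.98 to 1.07 RPKM. Means of Gfra2 and Ak5 were also lower there, at 1.9 against 4.1 and 7.0 against 12.2 RPKM. The Wapl clones received the drug and no virus, and the drug controls held Fmod at 249 to 287 RPKM. After Ctcf deletion Fmod lay at 21.4 to 32.6 RPKM against 245 to 259 RPKM. Grm4 did not exceed 0.217 RPKM in any library outside the 3 in which Wapl had been deleted.

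**Figure D4:**
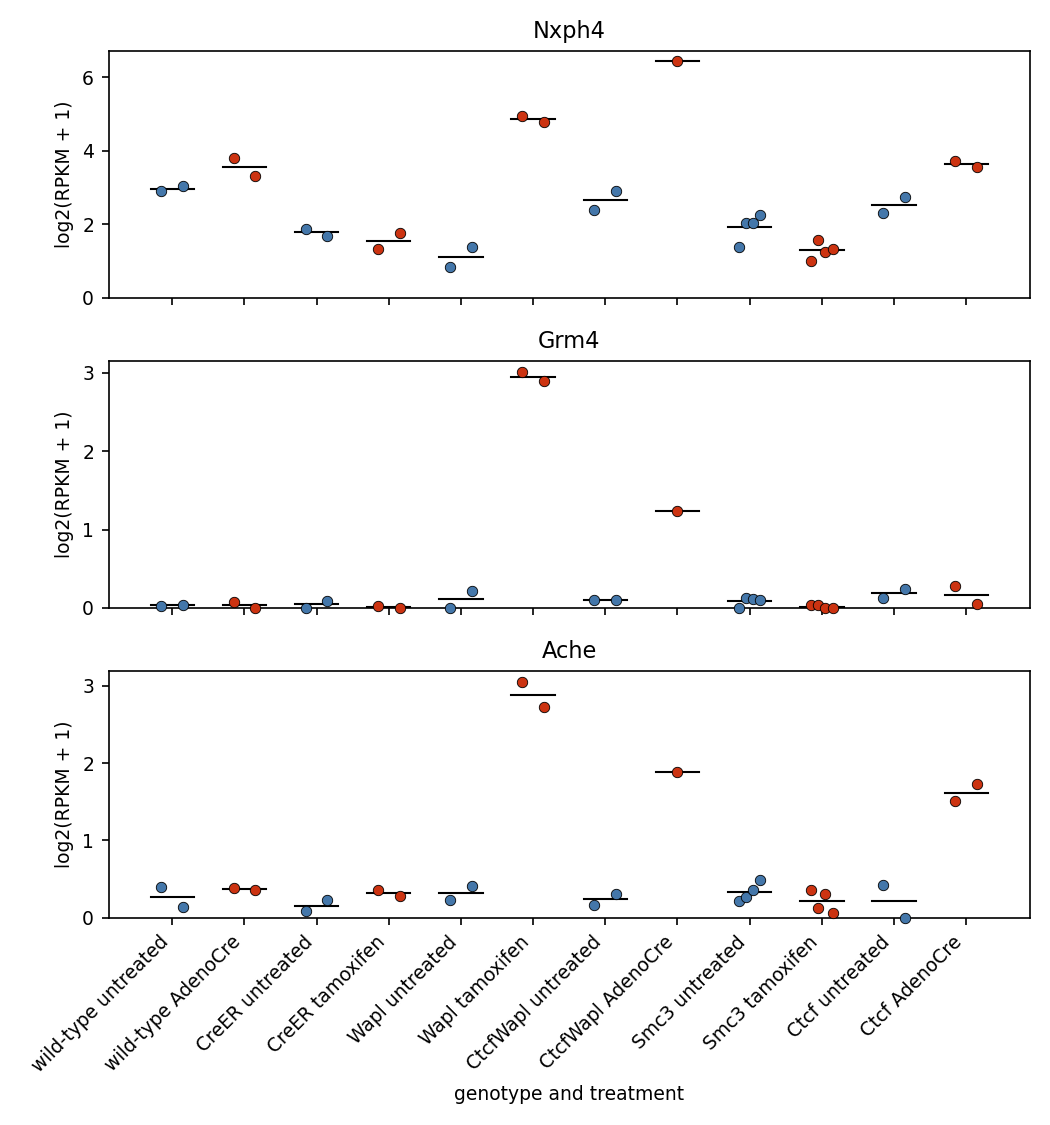
Levels of Nxph4, Grm4 and Ache (vertical axes, log2(RPKM + 1), each with its own scale) in all 27 libraries by genotype and treatment; blue untreated, red treated, bar at the group mean. For Grm4, the 2 treated Wapl libraries and the 1 treated Ctcf and Wapl library stand above all others.

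Gene groups were then read from 31 lists of pathways and 10 lists of cell type markers, with the counts set beside the 1.5% and 0.928% of all tested genes that rose or fell, and counts with the clone as a block beside that fit's 7.62% and 6.97%. For cohesin itself, 0 of 6 tested ring and accessory subunits passed the test, with Smc1a at 27.6 and 22.3 RPKM untreated and 26.8 and 23.8 RPKM treated and Rad21 at 23.4, 22.7, 21.3 and 21.8 RPKM. Of 10 tested loaders, release factors and modifiers 0 passed; the loader Nipbl changed by 0.10, the release partners Pds5a by -0.22 and Pds5b by 0.25, and Ctcf by -0.21. The clone block called 1 of them, Wapl itself. Of the condensin and Smc5/6 list 0 of 13 passed (median -0.16). The meiotic subunit Rec8 was listed at 0 in all 4 Wapl libraries.

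Of 44 tested genes of neural signalling and axon guidance 3 rose and 2 fell, while the median lay at -0.24. The 3 were Ntf3, the netrin Ntn4 (3.67 and 7.25 to 16.8 and 14.7 RPKM, 1.43, adjusted p = 0.00744) and the receptor tyrosine kinase Ret (0.66, adjusted p = 0.0364). The 2 were the ephrin ligand Efnb2 and the ephrin receptor Epha4, which fell from 13.1 and 14.7 to 8.21 and 7.45 RPKM (-0.76, adjusted p = 0.016). With the clone as a block 8 rose and 10 fell. None of 11 tested neural and glial cell type markers passed, and their summed level was 34.9 and 40.7 RPKM in the untreated libraries and 32.9 and 33.2 RPKM in the treated ones.

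Histone genes rose in 4 of 30 tested cases and fell in none (median 0.31, and 0.03 in the control). Beside Hist1h4h these were Hist1h2bc (71.7 and 64.5 to 124 and 126 RPKM, 0.86, adjusted p = 0.0168), the linker histone H1f0 (116 and 137 to 221 and 207 RPKM, 0.75) and Hist1h1e (0.71). Replication-dependent histone transcripts mostly lack a poly(A) tail, and these libraries were made from poly(A) RNA. With the clone as a block 8 rose.

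Cell cycle genes lay lower after Wapl deletion, with 28 of 35 below 0 and a median of -0.48 against -0.02 in the control, but 1 passed. Cdt1, which licenses replication origins, was at 10.5 RPKM in both untreated libraries and at 2.23 and 5.61 RPKM in the treated ones (-1.32, adjusted p = 0.0147). The helicase subunits Mcm6 (-1.27), Mcm5 (-1.10) and Mcm3 (-0.91) had adjusted p from 0.057 to 0.0866. With the clone as a block 10 fell and 2 rose. The proliferation marker Mki67 was at 1.29 and 1.05 RPKM untreated and 0.409 and 0.551 RPKM treated.

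Genes for cytoplasmic ribosomal proteins lay slightly lower as a group: 71 of 76 were below 0 and the median was -0.36 (-0.01 in the control), with 0 past the threshold. The clone block called 23 of them lower. Many of these genes have processed copies in the genome, and the sharing of reads with them is uncertain. Genes induced by interferon lay higher, 39 of 48 above 0 with a median of 0.31, again with 0 past the threshold and 2 with the clone as a block. Isg15 was at 57.9 and 35.3 RPKM and then at 169 and 124 RPKM (1.66, adjusted p = 0.261).

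Among amino acid and stress response genes 1 of 32 rose and 2 fell. The 2 were both subunits of an amino acid exchanger, Slc7a5 (71.0 and 62.0 to 23.4 and 30.9 RPKM, -1.27, adjusted p = 0.00762) and its heavy chain Slc3a2 (104 and 108 to 55.2 and 70.4 RPKM, -0.76, adjusted p = 0.00455). The hormone gene Fgf21 went from 1.92 and 3.33 to 7.05 and 7.14 RPKM (1.19, adjusted p = 0.0191). With the clone as a block 9 genes of the list fell and 3 rose. Of 27 p53 targets 2 rose and 0 fell: Trp53i11 (4.15 and 4.53 to 18.0 and 14.9 RPKM, 1.70, adjusted p = 0.000717) and the cell cycle inhibitor Cdkn1a (557 and 656 to 1085 and 962 RPKM, 0.76, adjusted p = 0.0181).

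Matrix genes changed in single members. In a list of 40 matrix proteins Lamc1, the laminin chain gamma 1, rose (95.6 and 83.5 to 172 and 141 RPKM, 0.79) and Fmod fell. Of 22 proteases and inhibitors the plasminogen activator Plat rose (46.4 and 54.1 to 117 and 86.7 RPKM, 0.99). Of 24 fibrillar and network collagens 0 passed. Of 32 chemokine and inflammation genes 2 rose, Ccl11 and the macrophage growth factor Csf1 (127 and 130 to 253 and 208 RPKM, 0.83).

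Among 38 imprinted genes 1 rose and 2 fell. Peg13, a noncoding RNA, went from 12.6 and 13.3 to 24.9 and 20.6 RPKM (0.76, adjusted p = 0.00589), and Mcts2 from 4.37 and 6.77 to 1.69 and 1.88 RPKM (-1.22, adjusted p = 0.00455). Peg12 changed by -0.67 (adjusted p = 0.00802). Of 37 Hox genes Hoxc6 rose (27.1 and 37.2 to 68.5 and 60.4 RPKM, 1.00, adjusted p = 0.0266), and the clone block called 10 higher and 2 lower. Of 33 clustered protocadherins, whose promoters are well-known CTCF and cohesin sites, 0 passed, with a median of -0.12.

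Fibroblast markers remained high, with Col1a1 between 4844 and 7664 RPKM and Pdgfrb between 110 and 139 RPKM over the 4 libraries, and S100a4 rose (123 and 82.8 to 544 and 227 RPKM, 1.79, adjusted p = 0.0367). Of 11 adipocyte markers Pparg fell; Lpl, at 403 and 408 RPKM untreated and 66.1 and 201 RPKM treated, changed by -1.80 (adjusted p = 0.227). Of 7 epithelial markers Cdh1 rose, from 0.620 and 0.399 to 1.73 and 1.26 RPKM (0.72, adjusted p = 0.0315), while Epcam did not exceed 0.174 RPKM and 3 markers were at 0 in all 4 libraries. Of 7 markers of cartilage and bone cells 0 passed, with a median of -0.07. Their summed level, 557 and 322 RPKM untreated and 86.9 and 259 RPKM treated, moved mostly with Spp1, osteopontin, which is also known from macrophages and changed by -2.78 in clone 1 and -0.32 in clone 2. In each of the pathways not named above, at most 1 member passed.

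**Figure D5:**
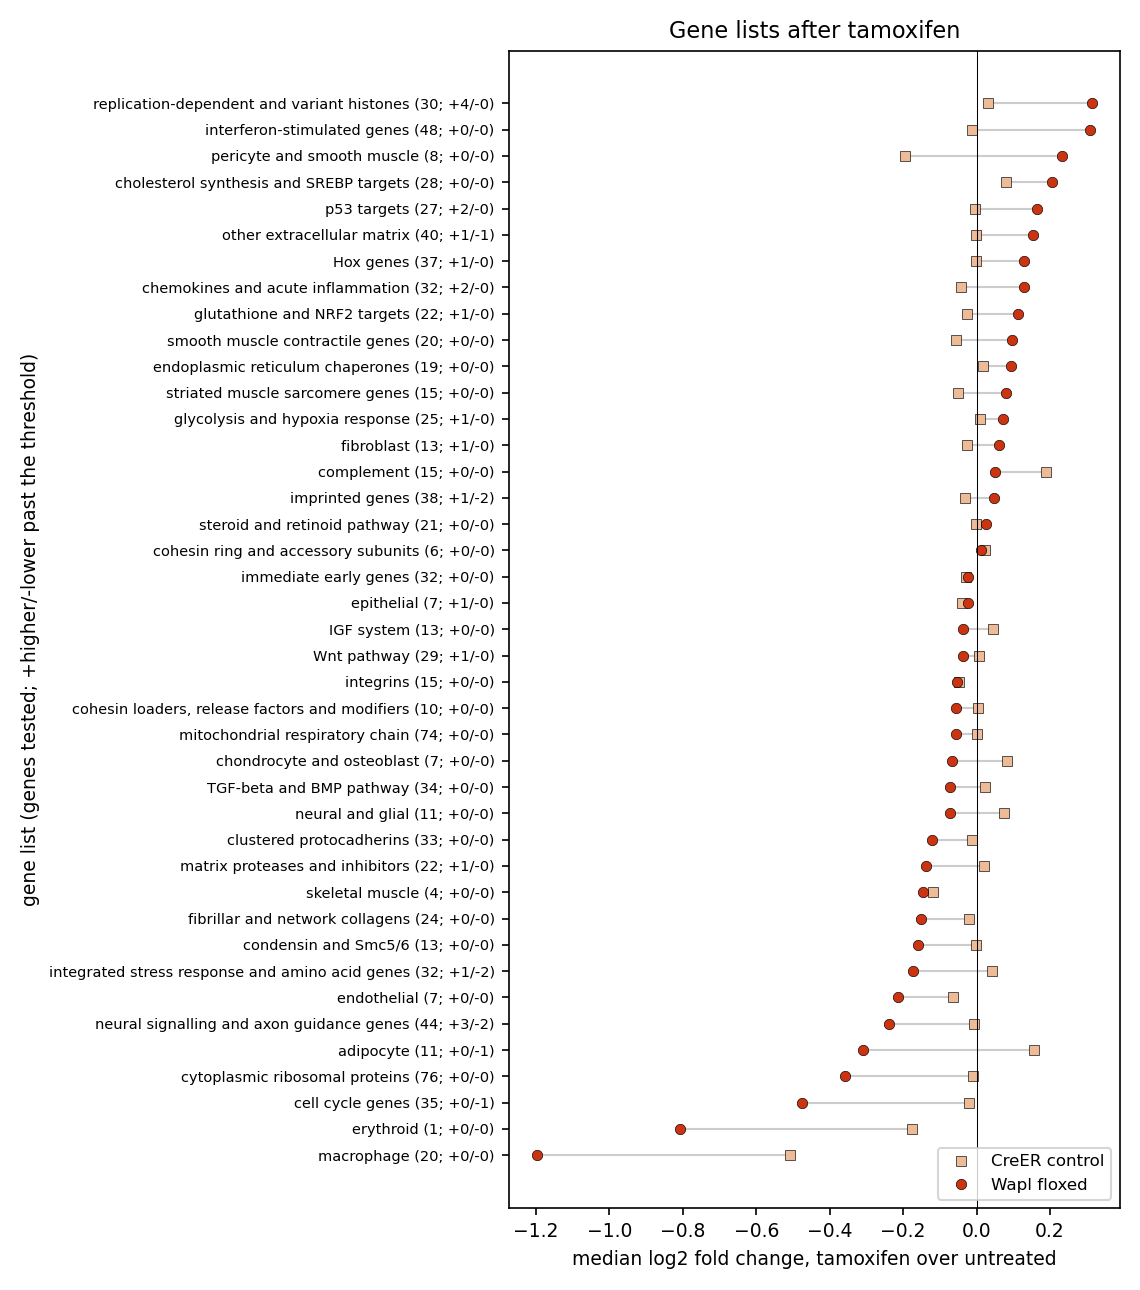
Median log2 fold change of each gene list after the drug (horizontal axis) in Wapl floxed cells (circles) and CreER controls (squares); the labels give the genes tested and those past the threshold as higher or lower. The macrophage list lies lowest, at -1.20 and -0.51, and the histone and interferon lists highest in Wapl floxed cells, both at 0.31. The control value of -0.51 averages 2 clones in which Cd68 and Lyz2 moved in opposite directions.

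Position along the genome was described for the 12584 tested genes that could be placed in RefSeq order. Of the 611 nearest tested neighbours of genes that passed, 12 passed themselves (1.96%, against 2.43% of all tested genes). They formed 6 adjacent pairs, 5 of which moved in the same direction. Ache stood next to Ufsp1, which encodes a protease for the protein tag Ufm1 and rose from 3.17 and 2.31 to 5.95 and 4.79 RPKM (0.77). Rasgrp2 stood next to Nrxn2, which encodes neurexin 2 and rose from 0.217 and 0.446 to 2.47 and 2.17 RPKM (1.32, adjusted p = 0.000649). The cadherin genes Cdh1 and Cdh3 (32.9 and 53.7 to 104 and 101 RPKM, 1.26), the apolipoprotein L genes Apol9a (1.42) and Apol9b (1.06), and Rab6b and Srprb were the other pairs that moved together. In the sixth pair Fam180a rose by 1.72 beside an uncharacterised RIKEN gene that fell by 1.08. Apol9a and Apol9b are close copies, so their reads may be shared, and without a stated strand the reads of overlapping neighbours cannot be told apart. Next to Ccl11 lay the chemokine gene Ccl7, at 17.8 and 9.94 RPKM untreated and 110 and 45.7 RPKM treated (2.33, adjusted p = 0.145; 0.00392 with the clone as a block).

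Change also varied with transcript length. The median log2 fold change went from -0.05 in the shortest of 5 equal classes (transcripts of up to 1536 bases) over -0.04, -0.03 and 0.00 to 0.06 in the longest, and was within 0.01 of 0 in every class of the control. Removing a length trend from each library gave 347 genes past the threshold, and the share of increases among them was 55.9%, beside 61.8% as fitted and 57.0% after rescaling.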

How the data were processed

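RPKM values per RefSeq gene were deposited by the authors in 1 table of 27 RNA-seq libraries. The submitters' processing notes name build mm9 and, with no role or order, bedtools, HTSeq, MACS 1.4.2, Bowtie 0.12.5 and TopHat (1.3.1, 1.4.1); strand is not given in the sources used here. RPKM steps gave whole reads (within 0.02) for 99.972% of 18155 genes, and with them the depth, 8500000 to 41100000 reads a library; Col1a1, Col1a2, Col3a1, Fn1 and Sparc gave none. Genes with at least 1 RPKM in at least 2 libraries were tested with limma 3.58.1 (R 4.3.3) on log2(RPKM + 1), with 12 group means, 15 residual degrees of freedom, trend and robust settings and Benjamini-Hochberg adjustment over all 12604 genes. The fit was tested on simulated data with independent noise and no clone effect, where changes were planted only in genes of higher level. Recovery of changes in low genes and the fit with the clone as a block were not tested in this way.

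The clone is named in the labels, and same-numbered libraries come from the same cells; the deviations of the paired Wapl libraries correlated at 0.468 (CreER -0.198), and the alternative fit with the clone as a block had 7 residual degrees of freedom. Beyond the clone nothing in the labels gives a batch or date. In the main fit p-values measure the spread between clones and cultures, shared over 12 groups of several genotypes. For a gene near 0 in most libraries, such as Grm4 (SE 0.11), that spread comes mainly from libraries at the floor. How such a gene varies between clones once expressed rests on the 2 treated Wapl libraries. Named genes were Wapl, the 12 highest and 12 lowest log2 fold changes that passed, moved the same way in both clones and reached a group mean of 5 RPKM, up to 5 each way against the control, and list members that passed or had small p; Ccl7, Nrxn2, Ufsp1 and the genes of the closing observations were chosen after their values were seen. Predicted genes and small RNAs were counted but not named. The members and lists were chosen with earlier results of these data known. Promoters are from RefSeq (GRCm38.p6); 16 of the 24 leading genes matched. Neighbours follow RefSeq order in that build.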

Additional observations from a re-analysis of the deposited data

Results flagged for a closer look

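The change with the drug differed between Wapl floxed cells and CreER controls, by a test of the difference itself in limma, for 9 of the genes named above and 2 named under the other observations. The differences in log2 fold change were 3.99 for Nxph4, 2.90 for Hist1h4h, 2.88 for Grm4, 2.40 for Ache, 2.22 for Rasgrp2, 2.16 for Aass, 1.63 for Chrm4 and 1.49 for Nefh, and -1.52 for Marcksl1, -1.23 for Efnb2 and -1.19 for Pet112. The Wapl clones and the control clones differed in sex, and its part in these differences was not tested. In 1 group of 4 libraries a single library stood apart: Grm4 was listed at 0 in 1 untreated Smc3 library and lay between 0.0739 and 0.0873 RPKM in the other 3, a range of few reads. How often chance alone sets a library apart at so few reads was not tested.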

How the results depend on the processing

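The 306 genes past the threshold after Wapl deletion became 1839 with the clone as a replicate block and 787 with only the Wapl and CreER libraries; pseudocounts, filters, rescaling, length trend and plain moderation gave 260 to 382, and leaving out 1 Wapl library gave 28 to 259. The 18 genes that differed from the CreER control became 312 with the replicate block, 11 and 5 at pseudocounts of 0.5 and 0.1 and 50 without a filter, and 6 to 21 without 1 library. The control itself had 0 genes, 1 without a filter and 0 to 2 without 1 of its libraries. The 148 genes that differed from Smc3 deletion became 1111 with the replicate block and 52 to 93 without 1 Wapl library. All 24 leading genes passed with the replicate block, and none changed direction under any of the alternatives run; 7 (Nxph4, Grm4, Ache, Hist1h4h, Rasgrp2, Aass and Marcksl1) passed under every one. Without the treated library of clone 1, 7 of the 24 passed, without the untreated library of clone 1, 11, without the untreated library of clone 2, 10, and without the treated library of clone 2, 19. In fits that leave 1 library in a group, that library is assumed to vary like the others. The cause of these shifts was not tested. At 1 RPKM a transcript of median length holds 43.9 to 57.4 reads in the Wapl libraries, which limits the lowest genes.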

Other observations

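The genes of these paragraphs were chosen after their values were seen, and the list of neural signalling genes as a whole had a median of -0.24, with 29 of 44 below 0. Nefh, the heavy neurofilament chain, was at 0.0268 and 0 RPKM in untreated clones 1 and 2 and at 1.85 and 1.76 RPKM after the drug (1.47, SE 0.11, limma adjusted p = 9.87e-08). Chrm4, a muscarinic acetylcholine receptor, went from 0.251 and 0.197 to 2.34 and 3.10 RPKM (1.60, adjusted p = 9.87e-08). Both also differed from the CreER control (adjusted p = 2.16e-05 and 1.91e-05). Both were under 1 RPKM in the untreated Wapl libraries, and the 2 treated ones alone are enough to meet the filter for testing. The potassium channel gene Kcnh1 (0.427 and 0.839 to 3.92 and 2.67 RPKM), the calcium channel gene Cacna1g (9.56 and 14.7 to 37.4 and 27.1 RPKM) and the neuronal hydrolase gene Uchl1 (6.01 and 4.51 to 19.9 and 12.9 RPKM) rose as well. The neuronal tubulin Tubb3, by contrast, was at 3.08 and 4.75 and then 4.57 and 5.17 RPKM (adjusted p = 0.807). Ctf1, a cytokine related to ciliary neurotrophic factor, rose from 6.69 and 7.16 to 19.9 and 14.3 RPKM (1.18, adjusted p = 0.00801).

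Of 14 tested genes with a cadherin symbol (Cdh) 4 rose and 0 fell, beside 1.5% and 0.928% of all genes, and the median was -0.01. They were Cdh26, Cdh3, Cdh1 and Cdh13, the last from 1.43 and 1.78 to 10.8 and 5.71 RPKM (1.77, adjusted p = 0.0251). The main fibroblast cadherin Cdh11 was at 226 and 158 and then 156 and 112 RPKM (-0.51, adjusted p = 0.347), and Cdh2 changed by -0.23. Of 11 tested host genes of small nucleolar RNAs (Snhg and Gas5), 10 lay below 0 with a median of -0.76 (-0.03 in the control). Snhg12 and Snhg8 (27.9 and 28.7 to 9.73 and 12.5 RPKM, -1.28, adjusted p = 0.00589) fell, and Snhg5 (-0.81) and Gas5 (-0.84) were called with the clone as a block.

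Marcks, a close relative of Marcksl1, fell as well, from 148 and 131 to 49.9 and 65.4 RPKM (-1.27, adjusted p = 0.00945), while the control libraries held it at 478 to 554 RPKM.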
